A study of Mus musculus with 24 samples.

Results

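The mandibular process, the part of the first pharyngeal arch that builds the lower jaw, was profiled in mouse embryos at E11.5 with and without a deletion labelled Hoxa2PTE-36kb-del. The comparison rested on 4 of the series' 24 libraries, 2 from mandibular processes with the 36kb deletion and 2 from wild-type (WT) mandibular processes, which the titles number as biological replicates. All 4 are labelled as cranial neural crest cells of the tissue Md, an abbreviation commonly used for the mandibular process. By their labels the deletion libraries differ from the WT libraries in that genotype, and the labels name no further allele for either group. The groups may differ in other ways that the labels do not give. The 36kb deletion was also profiled in PA2, the usual abbreviation for the second pharyngeal arch, with 2 libraries against 2 WT libraries at E11.5. The genotype field of 1 of those deletion libraries differs from its title, and the title was followed. The protocols name cell sorting for the crest of Wnt1::Cre;ROSARFP and Ezh2cKO embryos, so the WT crest was marked through the Wnt1 promoter. The labels and protocols do not say whether the cells with the 36kb deletion were sorted or carried Wnt1::Cre and ROSARFP. A difference in these alleles or in sorting therefore cannot be told apart from the deletion. Neither the strain on which the deletion was made nor its position is given. The marker genes of the labelled cell type could not be checked, because the assay counts contacts and not RNA.

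Hox genes encode transcription factors that tell cells their position along the body axis, and they lie in 4 clusters. Hoxa2 gives the neural crest of the second arch its identity, and the crest of the mandibular process normally keeps it silent. Enhancers can lie far from the promoter they serve and are thought to reach it by folding of the chromatin. Polycomb proteins hold silent Hox genes in compact chromatin, whose segments contact each other. Promoter capture Hi-C records such contacts by joining DNA ends that lie close together in the nucleus and pulling out the junctions that hold a promoter. A promoter-containing HindIII fragment is called a bait here, and a called interaction is a pair of fragments whose deposited score was at least 5. Calls between fragments of the same chromosome are called cis calls.

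The pair of promoters below is shown because a contact between their baits was called in both deletion libraries (scores 12.4 and 10.5) and in 1 WT library (score 5.09). They come from RefSeq (GRCm38.p6), run 5′ to 3′ on the minus strand, and have each CG dinucleotide in capitals. The Hoxa2 promoter lies at chr6:52164782-52165081 inside its bait, chr6:52162863-52166906. That of Skap2, which encodes an adaptor protein of Src-family kinase signalling, lies at chr6:52012500-52012799 inside the bait chr6:52010940-52014873.
Hoxa2: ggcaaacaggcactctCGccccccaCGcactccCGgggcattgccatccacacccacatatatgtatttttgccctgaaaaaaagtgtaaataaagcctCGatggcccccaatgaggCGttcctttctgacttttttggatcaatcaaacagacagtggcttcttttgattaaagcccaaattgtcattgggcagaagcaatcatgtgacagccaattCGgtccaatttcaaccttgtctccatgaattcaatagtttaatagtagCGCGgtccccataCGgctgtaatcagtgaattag
Skap2: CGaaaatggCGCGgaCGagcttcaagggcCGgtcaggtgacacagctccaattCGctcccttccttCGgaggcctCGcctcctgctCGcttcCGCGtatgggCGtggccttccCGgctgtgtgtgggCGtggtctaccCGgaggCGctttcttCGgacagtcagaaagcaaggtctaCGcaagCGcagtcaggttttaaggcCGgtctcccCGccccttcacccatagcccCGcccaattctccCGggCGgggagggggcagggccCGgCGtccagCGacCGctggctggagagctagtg
The Hoxa2 window held 9 CG dinucleotides at 45.7% G and C, and the Skap2 window held 28 at 66.0%. Of all 32851 promoter windows in the table, 54.2% held fewer than the Hoxa2 window and 85.8% fewer than the Skap2 window. Neither window held the HindIII site AAGCTT, which reads the same on both strands and occurs in 7.45% of all windows.

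The deletion libraries listed 150324 and 154232 calls and the WT libraries 171317 and 173381, of which 145096, 149469, 165629 and 168276 were cis calls in the same order. Read depth was unknown, so counts per bait were set against each library's total of cis calls. Between the Wnt1 bait on chromosome 15 and chromosome 11 from 5 to 8 Mb, calls were listed at 0 in both Md deletion libraries and numbered 359 and 312 in the Md WT libraries. The same calls were listed at 0 in all 6 deletion libraries of the series and ranged over 156 to 406 in the 18 WT and Ezh2cKO libraries. The part of this difference in the results below was not tested. No batch label was shared between libraries, so batch and group cannot be told apart. In bulk material, fewer cells with a contact and a weaker contact in each cell cannot be told apart either. With 2 libraries against 2, an exact two-sided permutation test over libraries cannot go below p = 0.333, so library measures and sums over baits are given without a call.

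Within chr6:50000000-53500000, the Hoxa region, 1 stretch held no call in the deletion. Its 9 neighbouring HindIII fragments, chr6:51173834-51213428, were the longest run called in at least 1 Md WT library and in neither Md deletion library, and the next longest run held 2. The stretch was picked by these counts, so its Md counts are a description, and the PA2 libraries were not used to pick it. It is 39.6 kb long at fragment resolution and lies 951.4 to 991.0 kb from the annotated Hoxa2 start. It overlaps the long non-coding gene Gm32403 (chr6:51200919-51207351). In all, 0 and 0 calls of the Md deletion libraries ended in it, against 101 and 97 calls of the Md WT libraries. The PA2 libraries with the same deletion had 0 and 1, against 104 and 97 in PA2 WT, and those with the 42kb deletion had 1 and 0. Each of the 10 WT libraries of the series called all 9 fragments. Removed DNA cannot be called, and a lost contact also gives 0 calls, so the 2 cannot be told apart here.

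In Md WT, the most contacted fragment of the stretch, chr6:51180767-51183201, had 17 and 15 calls, and its neighbours chr6:51173834-51180766 and chr6:51183202-51190454 had 15 and 15 calls each. Both deletion libraries listed 0 at each of these fragments. A fit across 12865 fragments with at least 5 calls on average (limma, Benjamini-Hochberg adjustment over all of them) called 412 of them (3.2%), 246 falls (1.91%) and 166 rises (1.29%). In the Hoxa region 35 fragments were tested, of which 8 fell and 0 rose, with 6 above WT at an unadjusted p under 0.05.
Of the 8 falls, 5 belonged to the stretch, with limma adjusted p between 4.61e-09 and 9.88e-05, and the other 4 fragments of it averaged too few calls to be tested. Because the stretch was picked for its 0 calls in the deletion, these 5 p-values carry no weight as a test. The last 3 of the 8 falls lay just left of the stretch, where the deletion libraries kept part of the calls. Fragment chr6:51171572-51173833 had 2 and 2 calls in the deletion, against 11 and 12 in WT (log2 change -2.08, SE 0.24, adjusted p = 9.88e-05). Fragment chr6:51170426-51171571 had 5 and 3 calls in the deletion, against 11 and 11 in WT (log2 change -1.21, SE 0.26, adjusted p = 0.0151). Fragment chr6:51167210-51170010 had 1 and 1, against 3 and 6 (adjusted p = 0.0458). Without 1 library the last 2 reached adjusted p of 0.109 and 0.308 at most, and with the 4 Md libraries fitted alone 0 of the 35 passed in limma, with 11 at an unadjusted p under 0.05 and a lowest adjusted p of 0.0827. In the 42kb deletion all 3 were listed at 0 in both libraries. With the 36kb deletion in PA2, Hoxa2 had 5 and 4 calls to this left flank, chr6:51167210-51173833, against 5 and 5 in PA2 WT. The 14 baits of the Hoxa cluster together had 14 and 14 calls to it there, against 42 and 41.

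**Figure D1:**
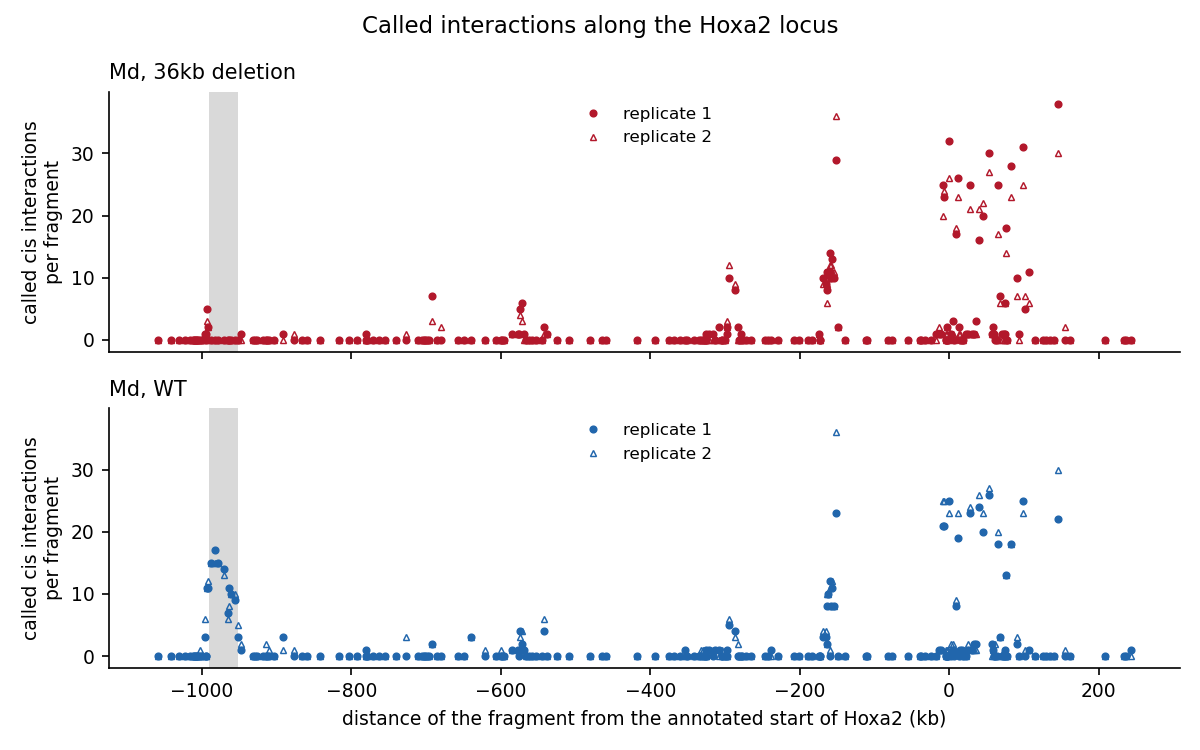
Called cis interactions of each HindIII fragment (vertical axis) against its distance from the annotated start of Hoxa2 (horizontal axis, kb), with the 36kb deletion in the upper panel, WT in the lower panel and 1 symbol per replicate. The grey band is the stretch of 9 fragments, which held up to 17 calls per fragment in WT and 0 in the deletion.

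In WT mandibular process the stretch was a shared partner of the Hoxa cluster. All 14 baits between chr6:52145344 and chr6:52324560, 2 of them unnamed and the others at genes of the cluster and the neighbouring homeobox gene Evx1, called it in both WT libraries. The bait at the shared end of Hoxa3 and Hoxa7 had 0 and 0 calls to the stretch in the deletion, against 9 and 9 in WT. Hoxa2 had 0 and 0, against 7 and 5, and Hoxa13 at the far end of the cluster had 0 and 0, against 4 and 3. Calls thus spread over the whole cluster, with fewest at its Hoxa13 end and at the unnamed bait chr6:52172437-52174759 (0 and 0, against 4 and 3). Outside the cluster Skap2 had 0 and 0 calls to it, against 5 and 5, and Snx10, a sorting nexin gene, had 0 and 0, against 1 and 1. A total of 20 baits called the stretch in at least 1 Md WT library, and 18 of them lay in the Hoxa region.

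At other places in the locus the same 14 baits had more called contacts in the deletion. Their calls inside the cluster itself numbered 84 and 66 in the deletion libraries, against 18 and 20 in WT, each call between 2 of these baits counting at both. Per 100000 cis calls of the library this was 51.02 ± 9.71 in the deletion and 11.4 ± 0.720 in WT (SD, n = 2 each), a ratio of 4.49. Calls to the Skap2 side, chr6:51860569-52016156, numbered 145 and 137 in the deletion, against 79 and 87 in WT, or 95.8 ± 5.85 and 49.7 ± 2.83 per 100000 cis calls (ratio 1.93). To the right of the cluster, up to the end of the Hoxa region, they had 84 and 77 calls in the deletion, against 49 and 48 in WT. In none of these 3 windows did the groups overlap. To the left flank of the stretch they had 7 and 4 calls in the deletion, against 25 and 29 in WT. These windows were drawn after the fragment counts had been seen, and with 2 libraries a group they were not tested.

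Single baits followed the sums to different degrees. Calls inside the cluster were higher in both deletion libraries than in both WT libraries at 12 of the 14 baits and lower at 0. To the Skap2 side the same held for 11 of the 14 and the reverse for 0. No share over all baits was computed for such windows, so these counts have no matching background. For all cis calls of a bait, a different measure, 15.6% of the 10344 baits tested genome-wide had both deletion libraries above both WT libraries. By the same measure 29.5% had them below.
The unnamed bait chr6:52172437-52174759 had 10 and 10 calls inside the cluster in the deletion, against 0 and 1 in WT. Hoxa10 had 11 and 6, against 2 and 3, and Hoxa4 had 6 and 4, against 0 and 0. To the Skap2 side, Hoxa6 had 14 and 15 calls, against 6 and 8, and Hoxa11 had 7 and 6, against 1 and 0. On that side the fragment nearest to passing as a rise, chr6:51868074-51873751, had 10 and 12 calls in the deletion, against 5 and 6 in WT (log2 change 1.12, SE 0.32, limma adjusted p = 0.0588).
Inside the cluster the 2 exceptions were Hoxa13, with 4 calls in each of the 4 libraries, and the Hoxa3 and Hoxa7 bait, listed at 0 in all 4. From the Skap2 bait, 28 and 34 calls reached the cluster in the deletion, against 17 and 29 in WT, and the groups overlapped.
Calls with both ends between the named baits of a cluster, each counted once, give the other Hox clusters as a measure of scale. For Hoxa they numbered 45 and 33 in the deletion, against 11 and 11 in WT. Hoxb had 64 and 39, against 55 and 50, and Hoxc had 132 and 146, against 162 and 162. Hoxd had 0 and 0, against 0 and 1. The 9 named Hoxc baits also had fewer cis calls in all, 502 and 571 in the deletion, against 799 and 847 in WT. Whether the clusters differ was not tested.

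**Figure D2:**
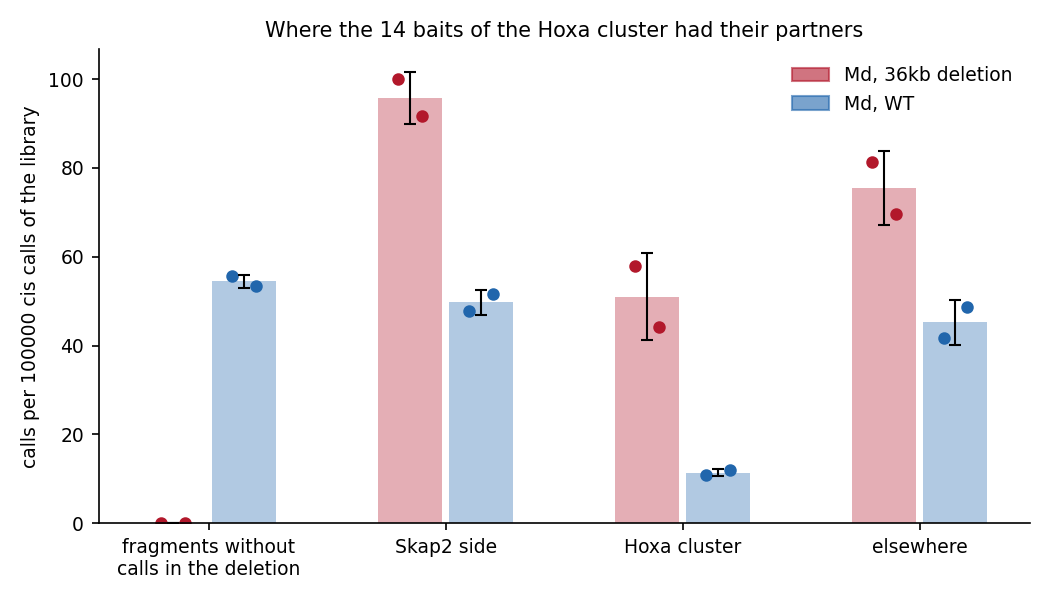
Calls of the 14 baits of the Hoxa cluster per 100000 cis calls of the library (vertical axis), by where the partner lay (horizontal axis), with the 36kb deletion left of WT. Bars are means, error bars the SD and points the 2 replicates; the deletion is at 0 in the lost stretch and above WT in the other 3 windows.

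At Hoxa2 itself the number of contacts did not pass the test, and some of the partners differed. The bait had 32 and 26 cis calls in the deletion libraries and 25 and 23 in the WT libraries, or 29.0 ± 4.24 and 24 ± 1.41 (SD, n = 2 each). Both deletion libraries lay above both WT libraries. The log2 change relative to total cis calls was 0.44 (SE 0.34, limma adjusted p = 0.509). Of 49 partners called in any of the 4 libraries, 10 were called in all 4, 9 in both deletion and neither WT library (gained) and 9 in both WT and neither deletion library (lost).
Of the 9 lost partners, 5 lay in the stretch, which was picked for its lack of deletion calls, and 2 in its left flank. The highest WT scores belonged to chr6:51180767-51183201, with 87.4 and 32.8 in its 2 libraries, and to chr6:51173834-51180766, with 34.26 and 34.96. The remaining 2 lost partners were the bait of Tax1bp1, an autophagy adaptor gene, at chr6:52711520-52715925, and chr6:23246740-23251425, 28915.8 kb away. Both flank partners were called at Hoxa2 in both PA2 libraries with the 36kb deletion (scores 24.5 to 31.1) and in both PA2 WT libraries. The Tax1bp1 bait was called in both PA2 libraries with the 36kb deletion (5.15 and 11.97) and in neither PA2 WT library.
The 9 gained partners lay on both sides of Hoxa2. On the Skap2 side there were 5, chr6:51873752-51881642 and 4 within chr6:51992461-52005999. In the cluster there were 4, the baits chr6:52240053-52242369 and chr6:52243161-52253347 at Hoxa10 and Hoxa11 and 2 fragments next to Hoxa13, chr6:52266780-52267063 and chr6:52267064-52277002. Their scores in the deletion libraries ranged from 5.12 to 10.4, so each lay within a few units of the threshold for a call. Gained, like lost, refers to the 4 Md libraries alone. Over the 24 libraries of the series each gained partner was called in 2 to 9, and all but chr6:52243161-52253347 were called outside the Md deletion libraries too. By window, Hoxa2 had 13 and 13 calls to the Skap2 side in the deletion, against 6 and 8 in WT, and 17 and 11 calls inside the cluster, against 5 and 5.

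Total contacts per bait in the Hoxa region did not pass the test. Of 35 baits there, 19 averaged at least 5 calls and were tested, and 0 passed, against 3.08% of all 10344 baits. At an unadjusted p under 0.05 there were 3, and 18 of the 19 had a log2 change above 0, with a median of 0.34 beside 0.04 over all baits tested. A call between 2 of these baits counts at both, so the 19 are not separate observations. The share of all baits above 0 is not given here. The lowest adjusted p, 0.0922, belonged to the unnamed bait chr6:52172437-52174759, with 17 and 18 calls in the deletion, against 8 and 9 in WT (log2 change 1.18, SE 0.38). Hoxa11 had 28 and 23, against 18 and 18, and Evx1 had 38 and 30, against 22 and 30 (log2 change 0.57, SE 0.24). For Evx1 the groups met at 30. Hoxa13, which patterns the distal limb and the hindgut, had 31 and 25, against 25 and 23. Around the cluster, Skap2 had 29 and 36 cis calls, against 23 and 36, and Creb5, which encodes a transcription factor, had 15 and 13, against 14 and 11. Genes with too few calls to test included Snx10 (0 and 0, against 3 and 3), Jazf1 (3 and 5, against 1 and 2) and the bait shared by Cbx3, a heterochromatin protein gene, and Hnrnpa2b1 (7 and 3, against 2 and 2). Hibadh, a gene of valine breakdown, had 6 and 3 against 1 and 2 at one bait and 5 and 2 against 1 and 1 at the other. Without the filter on low counts Snx10 was the single bait of the region to pass (limma adjusted p = 0.0332), with 3 calls in each WT library. The unnamed baits chr6:50872535-50879195 (0 and 0, against 3 and 3) and chr6:51620625-51625619 (2 and 1, against 4 and 6) on the same side of the cluster were not tested either.

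Counted as pairs, 836 cis pairs with an end in the Hoxa region were called in any of the 4 libraries. Of these, 96 were gained, 11.48%, and 119 were lost, 14.23%. In the rest of the genome 14197 of 371849 pairs were gained, 3.82%, and 20130 were lost, 5.41%, and over all pairs the shares were 3.84% and 5.43%. Pairs of 1 fragment share their source, so these shares carry no test. Of the 119 lost pairs of the region, 87 ended in the stretch, which was picked for its lack of deletion calls, and 18 in its flanks. Of the 96 gained pairs, 91 had an end in the Hoxa cluster, 28 of them both ends, and 43 joined the cluster to the Skap2 side.

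The second arch, where Hoxa2 is active, offered the same deletion in other libraries. There the Hoxa2 bait had 23 and 17 cis calls with the 36kb deletion, against 64 and 64 in PA2 WT, a fall that passed the test (log2 change -1.46, SE 0.34, limma adjusted p = 0.0344). Most of the PA2 WT calls reached chromosome 6 between 50 Mb and the left flank of the lost stretch. In that interval Hoxa2 had 6 and 5 calls in the PA2 deletion, against 52 and 52 in PA2 WT, and it was listed at 0 in all 4 Md libraries. The difference between the deletion effects in Md and PA2 at Hoxa2 was 1.90 on the log2 scale (SE 0.48), and its limma adjusted p over all baits was 0.503. With scores of at least 10 it was 0.0331, adjusted over the 1356 baits tested there. With scores of at least 7, 0 baits passed in this contrast (limma, lowest adjusted p 0.456).
Inside the cluster the 14 baits had 44 and 38 calls in the PA2 deletion, against 10 and 10 in PA2 WT, and to the Skap2 side 144 and 120, against 80 and 87. Hoxa2 itself had 0 calls inside the cluster in all 4 PA2 libraries. Loss of the Polycomb enzyme Ezh2 in Md, set against the same WT libraries, gave other values. The 14 baits had 54 and 55 calls to the stretch in Md Ezh2cKO, against 92 and 90 in Md WT, 56 and 51 to the Skap2 side, against 79 and 87, and 2 and 0 inside the cluster, against 18 and 20. These sums were not tested.

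**Figure D3:**
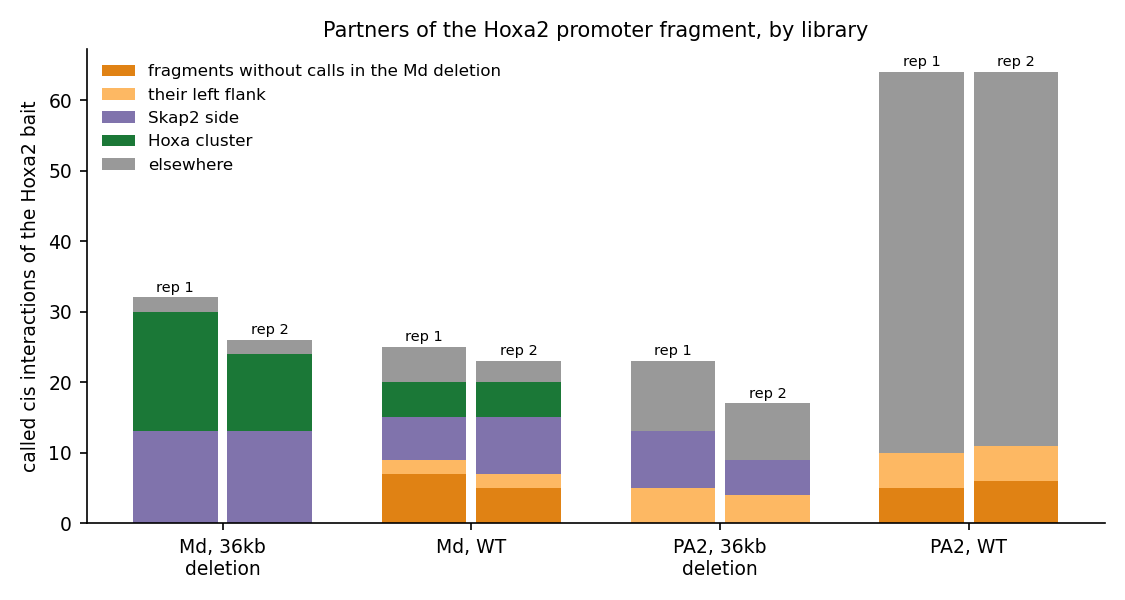
Called cis interactions of the Hoxa2 bait in each library (vertical axis), stacked by where the partner lay, for the 36kb deletion and WT in Md and in PA2. Totals are 32 and 26 against 25 and 23 in Md, and 23 and 17 against 64 and 64 in PA2, and calls inside the Hoxa cluster appear in the Md libraries alone.

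Outside the Hoxa region 319 of 10325 baits passed the test, 131 with more calls in the deletion (1.27% of all baits tested) and 188 with fewer (1.82%). The counts depended on single libraries. Without deletion replicate 1 there were 27 rises and 84 falls, without deletion replicate 2 63 and 234, without WT replicate 1 61 and 54, and without WT replicate 2 64 and 59. Past the threshold in each of those 4 fits were 11 of the 131 rises and 27 of the 188 falls. In a fit of the 4 Md libraries alone 11 baits rose and 36 fell. Scaled by cis calls, both deletion libraries lay above all 10 WT libraries of the series at 96 of the 131 rises and below them all at 155 of the 188 falls. Of all 10344 baits tested, 870 and 643 did so. The rises and falls were called from the same deletion libraries and Md WT, so this excess follows in part from that choice and is no separate support.

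Falls and rises are ranked here by log2 change among baits with a gene name. The largest fall was at chr17:34117600-34125398, the bait of Brd2, which encodes a bromodomain protein that binds acetylated histones, and of H2-DMa, an MHC class II gene. It was listed at 0 in both deletion libraries, against 31 and 31 calls in WT (adjusted p = 1.32e-09). The 10 WT and 8 Ezh2cKO libraries of the series had between 27 and 37 calls there, and the 4 PA2 deletion libraries had 3 to 16. The testis kinase gene Tssk4 on chromosome 14 had 0 and 0, against 8 and 7 (adjusted p = 3.17e-05), and the cilium gene Ccdc114 on chromosome 7 had 0 and 0, against 5 and 13 (adjusted p = 0.00195). Tns4, a focal adhesion gene, had 0 and 0, against 11 and 4 (adjusted p = 0.0198), which reached 0.193 without 1 library. A bait shared by Dnajc4, Nudt22 and the growth factor gene Vegfb had 0 and 4, against 13 and 14. Cpsf1, of the messenger RNA cleavage machinery, had 0 and 3, against 11 and 12. The remaining falls of the 10 largest at named baits, at She, Tescl, Gm39002 and a bait of Creb3l3 and Thop1, had 0 to 2 calls in the deletion libraries, against 6 to 19 in WT. Past the threshold without any 1 library were the bait of Brd2 and H2-DMa, Tssk4 and Ccdc114, while the bait with Vegfb reached adjusted p = 0.332, Cpsf1 0.362 and the last 4 between 0.0788 and 0.241. Of the 188 falls, 5 were listed at 0 in both deletion libraries.

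Among the 10 largest rises at named baits, 3 were olfactory receptor genes, which are normally used in sensory neurons of the nose. Olfr1002 had 28 and 35 calls in the deletion, against 1 and 2 in WT (log2 change 4.22, SE 0.74, adjusted p = 0.00343). Olfr339 had 13 and 18, against 1 and 4, and Olfr1495 had 21 and 17, against 5 and 1. The epidermal envelope gene Sprr2b had 16 and 22, against 0 and 1 (log2 change 4.66, SE 0.71, adjusted p = 0.00143), and in the 10 WT libraries it had at most 3. Glp1r, the receptor of the hormone GLP-1, had 9 and 11 and was listed at 0 in both WT libraries (adjusted p = 0.000119). The 8 Ezh2cKO libraries had 19 to 29 calls at Glp1r. The protocadherin gene Pcdha3 had 21 and 16, against 2 and 2 (adjusted p = 0.00178). These 4, Olfr1002, Sprr2b, Glp1r and Pcdha3, were past the threshold without any 1 library. The other 6 reached adjusted p of 0.0651 to 0.400 without 1 library. Mrpl35, a mitochondrial ribosome gene, had 10 and 6 calls, against 2 and 0. Gfus, of GDP-fucose synthesis, had 15 and 20, against 1 and 6. Glcci1 had 6 and 9, against 0 and 3, and Bzw1 had 4 and 5, against 1 and 0. Over the 10 WT libraries Bzw1 ranged over 0 to 8 calls, Glcci1 and Mrpl35 over 0 to 7 and Gfus over 1 to 10. Both deletion values of Bzw1, and the lower ones of Glcci1 and Mrpl35, thus lay within the WT range, and those of Gfus lay above it.

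**Figure D4:**
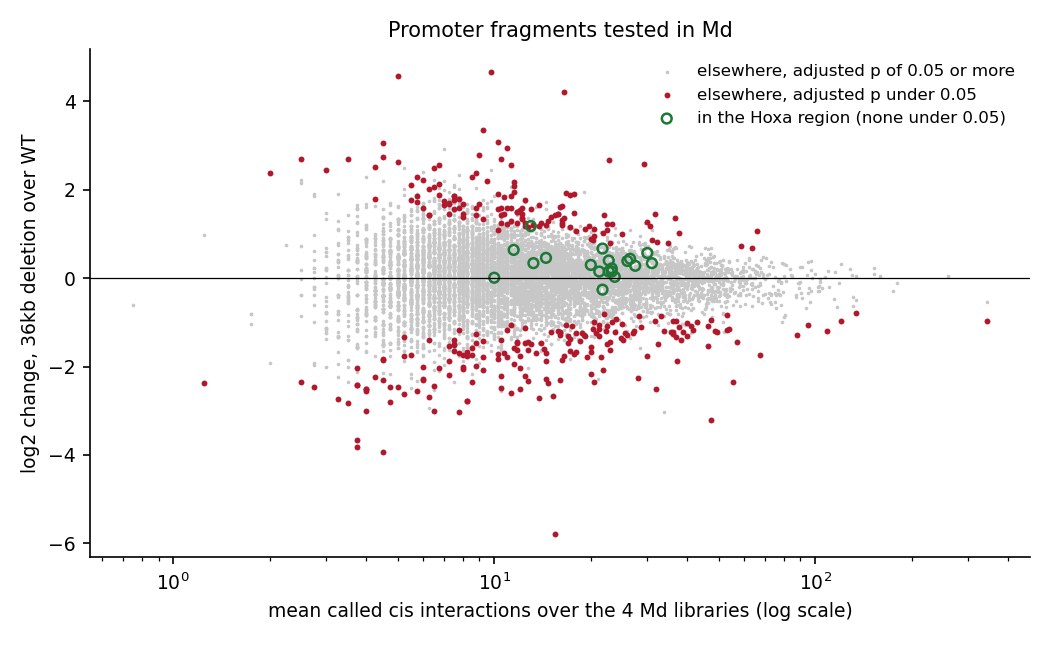
Log2 change of called cis interactions, 36kb deletion over WT in Md (vertical axis), against the mean number of calls over the 4 Md libraries (horizontal axis, log scale), 1 point per promoter fragment tested. Red points passed an adjusted p of 0.05; the 19 fragments of the Hoxa region, circled in green, lay between -0.26 and 1.18 and none passed.

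Few baits of craniofacial patterning genes passed the test. Of 32 baits of mandibular genes, 0 passed, with 7 at an unadjusted p under 0.05 and a median log2 change of -0.09. Among them Hand2, which patterns the lower jaw, had 68 and 68 calls, against 60 and 52 (log2 change 0.46, SE 0.17, adjusted p = 0.13), and Dlx5, which sets jaw identity with its relatives, had 66 and 64, against 67 and 66. The 45 baits of Hox genes, 12 of them in the Hoxa region, had 0 past the threshold and a median of 0.15, with 10 at an unadjusted p under 0.05. Hox cofactor genes gave 0 of 7 baits, 2 at an unadjusted p under 0.05. Of 20 baits of genes linked to Hoxa2 in the second arch, 1 rose, that of Eya4, a transcriptional coactivator of craniofacial and inner ear development, with 35 and 27 calls against 10 and 16 (log2 change 1.43, SE 0.29, adjusted p = 0.00979). Of 19 baits of early neural crest genes 1 rose, that of Twist1, a factor of crest mesenchyme, with 29 and 23 calls against 15 and 15 (adjusted p = 0.0381). Of 13 baits of skeletal and connective tissue genes 1 fell, that of Sp7, the osteoblast factor osterix, with 3 and 3 calls against 14 and 11 (log2 change -1.70, SE 0.32, adjusted p = 0.00579). Without 1 library these 3 reached adjusted p of 0.128, 0.267 and 0.0694. With 3.08% of all baits called, 1 call in a list of this size stands near the background. In the 10 WT libraries of the series Eya4 ranged over 6 to 31 calls, Twist1 over 12 to 23 and Sp7 over 7 to 17. The lower deletion values of Eya4 and Twist1 lay within these ranges, and both values of Sp7 lay below its range.
Markers of epithelium (6 baits), endothelium (6), muscle (8) and blood (13) gave 0 baits past the threshold in limma, with 2, 1, 1 and 1 at an unadjusted p under 0.05. Polycomb subunit genes gave 0 of 13 baits, with 1 at an unadjusted p under 0.05, and Ezh2 averaged 4.21 calls and was not tested. Housekeeping genes gave 0 rises and 2 falls among 25 baits. One was shared by Chmp2a, Trim28 and Ube2m (98 and 83, against 201 and 155) and the other by Flt3l and the ribosomal gene Rpl13a (16 and 21, against 38 and 38), and without 1 library they reached adjusted p of 0.219 and 0.272. Wnt1 had 8 and 5 cis calls, against 15 and 16 (adjusted p = 0.0684).

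The 10344 baits tested, the 19 of the Hoxa region included, were also described by the density of promoters. With baits split into 5 classes by how many baits share their 5 Mb of chromosome, the median log2 change was 0.16 in the sparsest class and -0.15 in the densest. The sparsest class of 2093 baits held 20 rises and 5 falls, and the densest class of 2005 held 32 rises and 72 falls. Over all baits tested 1.27% rose and 1.82% fell. Olfactory receptor baits numbered 418 and gave 19 rises and 0 falls with a median of 0.35, and keratin baits gave 0 rises and 4 falls among 75 with a median of -0.33. Clustered protocadherin baits gave 3 rises and 0 falls among 24, vomeronasal receptor baits 1 and 1 among 51, and zinc finger (Zfp) baits 4 and 4 among 179. Calls in the last 3 families were few, and no family was tested against the others. The families and the split were chosen after values had been seen.
In PA2, with separate libraries, the same deletion gave 155 calls among the 10344 baits (1.50%). Of the 131 baits that rose in Md, 126 had a positive log2 change in PA2 (median 0.90), and of the 188 that fell, 173 had a negative one (median -0.77). Over all baits outside the region 68.3% had the same sign in both tissues. Deletion and WT libraries of both tissues also differed in the Wnt1 bait calls on chromosome 11. Agreement in sign therefore cannot tell the deletion from what else separates the groups. Past the threshold in PA2 as well were 26 of the 131 and 32 of the 188. In all, 2 baits, 0.0193% of those tested, differed between the tissues in the deletion effect, Tssk4 and the bait of Brd2 and H2-DMa.

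Outside the Hoxa region, the 10 gained pairs with the highest scores and a named bait included 1 at Npl, a gene of sialic acid breakdown, over 0.19 Mb, 1 at the zinc finger gene Sall4 over 0.09 Mb, and 2 within a histone gene cluster on chromosome 13 over 0.02 Mb. The 10 lost pairs included 5 of Hjurp, which encodes the chaperone of centromeric histone, each with fragments 84.0 to 85.3 Mb away at the start of chromosome 1. Another joined Zic2, a neural transcription factor gene, to a fragment 73.8 Mb away. Of the 10 lost pairs, 3 spanned under 2 Mb, and of the 10 gained pairs, 9 did, the exception being Olfr338 over 20.6 Mb. Over all lost pairs outside the region 11.49% spanned more than 2 Mb, and over all gained pairs 5.12% did.

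Long cis contacts made up less of the deletion libraries. Calls over 10 Mb or more made up 5.23% and 5.85% of cis calls in the deletion libraries, against 9.26% and 7.90% in WT. Those between 100 and 500 kb made up 46.0% and 46.0%, against 41.2% and 43.3%. The median distance was 434.7 and 427.4 kb in the deletion, against 492.2 and 449.0 kb in WT. In each of these measures the groups did not overlap, and the gap between the 2 WT libraries in the last was larger than the gap between groups at its closest. The Md Ezh2cKO libraries had 4.83% and 7.37% at 10 Mb or more and 47.7% and 44.1% between 100 and 500 kb. Their median distances were 392.5 and 435.3 kb. Values beyond those of the deletion libraries thus also occurred in Md Ezh2cKO replicate 1.
Far contacts between 2 promoters of the Hox, cofactor, mandibular, second arch and early crest lists, between chromosomes or at 100 kb or more, numbered 21 and 25 in the deletion, against 58 and 52 in WT. As a share of all far contacts between promoters this was 0.113% and 0.127%, against 0.278% and 0.250%. Calls between chromosomes overlapped, at 3.48% and 3.09% against 3.32% and 2.94%. The Hoxa region held 0.310% and 0.264% of cis calls in the deletion, against 0.235% and 0.256% in WT. The deletion and WT libraries shared 0.260 to 0.270 of their cis pairs (Jaccard index), against 0.303 between the deletion replicates and 0.330 between the WT replicates.

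**Figure D5:**
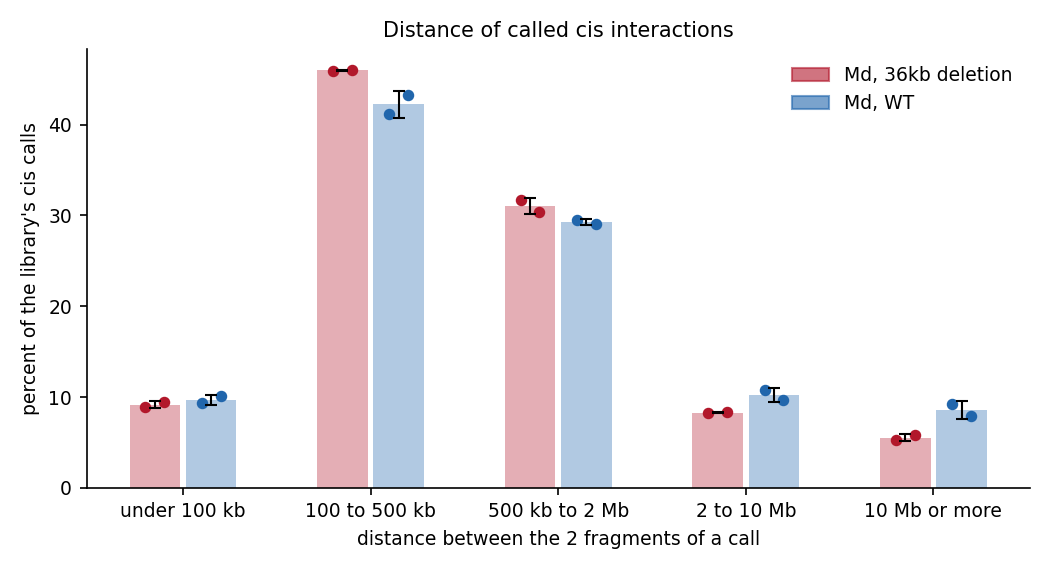
Percent of each library's cis calls (vertical axis) by distance between the 2 fragments (horizontal axis), with the 36kb deletion left of WT. Bars are means, error bars the SD and points the 2 replicates; above 2 Mb both deletion libraries lie below both WT libraries.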

How the data were processed

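Per the labels' protocols, chromatin was cross-linked, cut with HindIII and enriched for promoters. The authors deposited 1 list per library with 2 fragments and a score per called pair. Per the deposited file names the score comes from CHiCAGO, which compares a pair with its own library's background, and the lowest score listed was 5. The genome build is GRCm38 (mm10), per the submitters' processing notes. Neither aligner nor caller version is given. Reads were not used, so no count model was fitted, and scores were not compared between libraries.

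Baits (22203) took the names of RefSeq GRCm38.p6 protein-coding genes with either annotated end inside them, or else within 1 kb. A name can rest on a gene's far end. Cis calls were counted at both ends, because a pair of baits is listed once in an order that varies between libraries. The log2 of calls plus 0.5 per total cis calls was fitted with limma 3.58.1 in R 4.3.3, with 12 group means, empirical Bayes with trend and baits averaging at least 5 calls over 24 libraries. P-values are two-sided, Benjamini-Hochberg adjusted over all baits tested, with a threshold of 0.05, and measure the spread between 2 libraries a group, shared over 12 groups. The fit was also run on simulated data with independent noise drawn from its own variances. Such data cannot probe dependence between baits or what else separates the groups. The fit per fragment, the windows, the families and the density split were added after seeing the data. The members and gene lists were chosen with earlier results of these data known.

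Genes named were, in the region, every named bait that passed, with Hoxa2, Hoxa3, Hoxa13, Evx1, Skap2, Snx10, Cbx3, Hibadh, Jazf1 and Creb5. Elsewhere they were the 10 largest rises and falls past the threshold, up to 5 per list, and Wnt1, Hand2, Dlx5 and Ezh2. Pairs named were those gained or lost at Hoxa2 and, elsewhere, from the 10 best scored each way. Some results are not reported here. Other genes and pairs in the text were chosen after their values were seen. The replicate numbers did not pair the libraries: deviations of same-numbered libraries correlated at r = 0.012 in Md and -0.003 in PA2 over 10344 baits.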

Additional observations from a re-analysis of the deposited data

Results flagged for a closer look

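The effect of the 36kb deletion differed between Md and PA2 at 2 baits by a test of the difference over 10344 baits (limma, Benjamini-Hochberg), with 551 baits at an unadjusted p under 0.05. At Tssk4 the Md effect minus the PA2 effect was -4.41 on the log2 scale (SE 0.58, adjusted p = 0.00177), with 0 and 0 calls against 8 and 7 in WT in Md, and 11 and 10 against 9 and 7 in PA2. At the bait of Brd2 and H2-DMa it was -3.12 (SE 0.49, adjusted p = 0.0135), with 0 and 0 against 31 and 31 in Md, and 4 and 3 against 27 and 31 in PA2, so that the bait had fewer calls in the deletion in both tissues. Without 1 library the adjusted p of the difference reached 0.0315 at Tssk4 and 0.116 at Brd2 and H2-DMa. At the Hoxa cluster baits named next, both deletion libraries lay above both WT libraries in Md and below them in PA2, relative to cis calls, while the test of the difference did not pass at a score of 5. The difference was 1.90 at Hoxa2 (adjusted p = 0.503), 0.99 at the unnamed bait chr6:52174760-52177869 (0.788) and 1.15 at the bait shared by Hoxa10 and Hoxa11 (0.864). With scores of at least 10 the adjusted p at Hoxa2 was 0.0331 over 1356 baits tested, and with scores of at least 7, 0 baits passed.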

How the results depend on the processing

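Picked anew by the same rule under 6 alternatives, the stretch had 9 or 10 fragments, and its lack of deletion calls follows from that rule. The Hoxa2 bait kept its direction and its side of the threshold in all its alternatives (log2 0.27 to 0.61). Outside the region, 319 changed baits became 210 at a mean of at least 10 calls, 190 and 76 at scores of at least 7 and 10, and 47 in the 4 Md libraries alone, and ranged over 111 (without deletion replicate 1) to 297 with 1 library left out. In the region, 0 baits became 1, Snx10, without the filter. The 8 changed fragments there became 3 at a mean of 10, 4 at a score of 10 and 0 in the 4 Md libraries alone, and the 404 elsewhere became 222, 195 (score 7), 80 (score 10) and 7, with 135 (without WT replicate 1) to 420 when 1 library was left out. Of the 2 baits differing between Md and PA2, Tssk4 alone passed with an offset of 1, quantile normalization or calls within 2 Mb, and that of Brd2 and H2-DMa alone at a mean of 10, where Tssk4 was not tested. The count was 1 with first listed fragments, where neither was tested, 1 at a score of 10, where Hoxa2 passed and neither of the 2 did, 0 with a score of 7 (limma, 212 at an unadjusted p under 0.05), and 1 to 10 (without PA2 deletion replicate 1) with 1 library left out. At scores of 7 and 10, gained pairs numbered 54 and 34 in the region and 6144 and 2451 elsewhere, lost pairs 8762 and 3468 elsewhere and, at 10, 63 in the region. With 1 library left out, gained pairs reached 114 to 216 (without deletion replicate 2) in the region and 19920 to 68718 elsewhere, and lost pairs 125 to 210 (without WT replicate 1) and 29620 to 83695, since fewer libraries had to agree. The cluster baits' deletion minus WT difference per 100000 cis calls was -116.4 and -250.0 to the stretch and 100.1 and 203.2 to the Skap2 side at scores of 7 and 10. Deletion over WT ratios at those scores were 0.858 and 0.84 for all calls, 0.824 and 0.82 for the share between chromosomes (1.05 at a score of 5) and 1.02 and 0.943 for bait pairs, and at 10 they were 0.855 for cis calls, 0.258 for developmental pairs and 0.972 for the region's share. Single baits changed sign at the Hoxa3 and Hoxa7 bait (-0.23, score 10), the Hoxa10 and Hoxa11 bait (-1.04, score 7) and Hoxa11 (-0.32, score 10); the cause was not tested. With the replicate block, which paired libraries by a number alone, 336 baits outside the region changed and 0 inside. Medians of gene lists, families and density classes moved past 1.5 times or in sign in 98 of 286 repeats. A fit without 1 library assumes that the lone library varies like the other groups. Read depth is unknown, so a missing call is not an absent contact.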

Other observations

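By chromosome, changed promoter contacts outside the Hoxa region were most frequent on chromosome 7, where 10 baits rose and 51 fell among 1079 tested (5.65%), and on chromosome 17, with 5 rises and 20 falls among 481 (5.20%). Over all baits tested 3.08% were called, 1.27% as rises and 1.82% as falls. Chromosome 2 had more rises than falls, 16 and 6 among 818 (2.69%), as did chromosome 12, with 10 and 5 among 349. Chromosome 18 had 8 rises and 1 fall among 257. Chromosomes 1, 3, 6, 9, 13 and 14 also had more rises than falls. On the X chromosome 5 baits rose and 0 fell among 287 (1.74%). These chromosomes were picked after their counts were seen, and no test was run between chromosomes.

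Several of the changed baits with the lowest adjusted p were not among the largest changes, and they too were picked after their values were seen. On chromosome 7, the zinc finger gene Zfp324 had 80 and 69 calls in the deletion, against 170 and 161 in WT (log2 change -0.97, limma adjusted p = 0.000826). The bait shared by Fiz1 and Zfp524 had 50 and 43, against 131 and 127 (log2 change -1.29, limma adjusted p = 0.000821). Safb and Safb2, which encode scaffold attachment factors, shared a bait on chromosome 17 with 14 and 18 calls, against 98 and 92 (log2 change -2.36, limma adjusted p = 0.00195). Gadd45g, a growth arrest gene, had 40 and 41, against 17 and 24 (log2 change 1.17, limma adjusted p = 0.00372), which reached 0.0667 without 1 library.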
